A study of Mus musculus with 6 samples.

Results

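The 35 genes described here code for the enzymes and carriers that take glucose into a cell, break it down to pyruvate and lactate, store and release it as glycogen, and pass pyruvate into the mitochondrion. They were chosen as members of these pathways with earlier results of these data known, so how many of them passed is a description of the list. The count files hold 47643 gene IDs, of which 15792 had enough reads to be tested, and all 35 listed genes were found and tested. They comprise 24 genes from glucose uptake to lactate export, 6 genes of glycogen metabolism and 5 genes of mitochondrial pyruvate entry.

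RNA was measured in mouse salivary gland organoids (mSGOs), clusters of epithelial cells grown in Matrigel, a basement membrane gel, from dissociated submandibular glands. The donors were 3 female C57BL/6 mice of 8 to 12 weeks of age, and organoids of each mouse were collected on day 5 and on day 7, which gave 3 libraries per day. All cultures were non-irradiated and untreated, and all received WRY medium with Wnt3a- and R-spondin1-conditioned medium, EGF, FGF2, insulin, dexamethasone and the kinase inhibitor Y27632, so the groups differ by the day of collection. The gland cells had first been grown as floating spheres and dissociated, and the organoids lack the blood supply and nerves of the gland. Reads came from the 3′ ends of transcripts, and levels are given as CPM, which are counts scaled by TMM (trimmed mean of M values) to libraries of 1000000 counts and not divided by gene length.

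Glycolysis converts glucose to pyruvate in a chain of enzymes, several of which exist as isozymes coded by separate genes. Pyruvate is then either reduced to lactate and exported through monocarboxylate transporters, or moved by the mitochondrial pyruvate carrier to the pyruvate dehydrogenase complex, which makes acetyl-CoA for the citrate cycle. Glycogen is built from glucose 6-phosphate through glucose 1-phosphate and UDP-glucose, and glycogen phosphorylase releases it again. In many epithelia, low oxygen is known to raise glycolysis and lactate export through hypoxia-inducible factors.

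The libraries held 1918198 to 2837397 counts in genes. The epithelial label was checked with 12 markers of salivary epithelium such as *Epcam*, *Krt5* and *Krt14*. All 12 had counts, and their summed level was 14918 to 18594 CPM at day 5 and 12481 to 16915 CPM at day 7. That sum is mostly keratins of basal cells, and 2 of the 12 rose and 1 fell between the days. *Krt19*, a keratin of ducts, rose by 1.78 ± 0.21 on the log2 scale, from 53.1 to 183 CPM in the mean, and *Cldn4*, a tight junction protein, rose by 1.89 ± 0.27, from 70.3 to 261 CPM (SE, edgeR adjusted p = 1.56e-05 and 0.000149). *Krt8*, a keratin of simple epithelium, fell by 0.65 ± 0.20, from 109 to 69.2 CPM (edgeR adjusted p = 0.0374), a call lost without the day 5 library of mouse 1, 2 or 3 or the day 7 library of mouse 2 (-0.58, -0.73, -0.64 and -0.56). The call was also lost in a test against a minimum change of 0.6 (glmTreat, adjusted p = 0.631). Reads that named no gene made up 13.7% to 14.4% of reads at day 5 and 9.12% to 9.74% at day 7, so this library measure separates the days. The share of counts in protein genes of the mitochondrial genome was 2.60% to 2.72% at day 5 and 2.26%, 0.926% and 0.924% at day 7 for mice 1, 2 and 3. The part of these markers and measures in the results below was not tested.

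The comparison of 7-day with 5-day organoids asked how these genes differ between the days of culture. Of the 35 genes, 11 rose by day 7, 0 fell and 24 did not pass the threshold, which was an edgeR adjusted p under 0.05 with a log2 fold change beyond 0.6 in either direction. Over all genes tested, 12.0% passed it, with 7.22% higher and 4.82% lower, against 31.4% higher among the 35. The genes that rose were *Gpi1*, *Pfkp*, *Pfkfb3*, *Aldoa*, *Aldoc*, *Pgk1*, *Pgam1* and *Slc16a3* on the path from glucose to exported lactate, and *Pgm1*, *Gys1* and *Pygl* of glycogen metabolism. By branch, 8 of 24 genes from uptake to lactate export rose, 3 of 6 glycogen genes rose, and 0 of 5 genes of mitochondrial pyruvate entry rose or fell. At an unadjusted edgeR p under 0.05 there were 14 of the 35 genes, 1 of them lower at day 7, and 4079 of all genes tested. DESeq2 called 0 of the 35 lower, and a fit with the mouse as a block called 1, *Mpc2*.

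The summed level of the 35 genes was 3173, 3704 and 3649 CPM at day 5 in mice 1, 2 and 3, and 5235, 4164 and 5071 CPM at day 7. The days did not overlap, and the ratio of their means was 1.37. The median log2 fold change was 0.47 over the 35 genes and 0.40 over the 34 with a count on both days, against -0.01 over all genes tested. With library totals only as scaling, these medians were 0.36 for the 35 genes and -0.10 for all genes. All 3 day 7 values lay above all 3 day 5 values in 12 of the 35 genes, or 34.3%, where 15.4% of all genes tested did so. They lay below in 3 genes, or 8.57%, against 15.5% of all genes tested. More cells of a type and more RNA per cell cannot be told apart in RNA from whole organoids, nor can fewer cells and less RNA per cell.

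**Figure D1:**
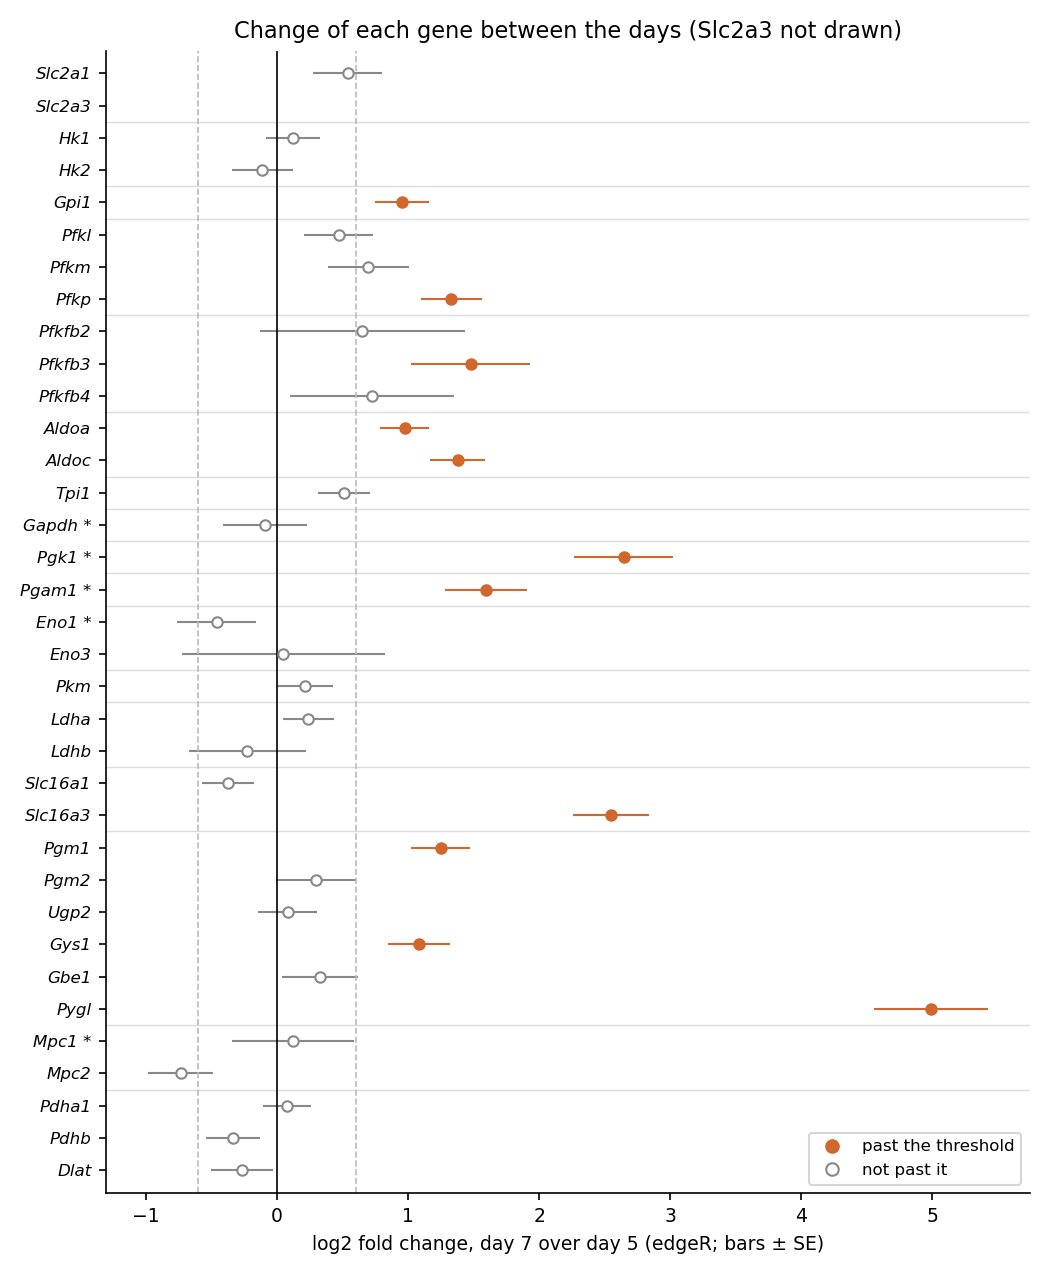
Log2 fold change of each gene from day 5 to day 7 (edgeR, 3 libraries per day), in pathway order from top to bottom, with bars of ± 1 SE and dashed lines at a change of 0.6 in either direction. Filled points mark the 11 genes past the threshold, all to the right, with *Pygl* farthest at 4.99. *Slc2a3*, with 3 counts in all, is not drawn, and stars mark genes whose 3′ end recurs elsewhere in the genome.

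The stretch around the start of transcription is shown for 4 of the genes, since hypoxia-inducible factors, which are known to drive many glycolysis genes, recognise the letters ACGTG or GCGTG, and Myc and the glucose-sensing factor ChREBP recognise CACGTG. Each window runs from 250 bases before to 50 bases after the start of the canonical transcript (GENCODE vM39 on GRCm39), 5′ to 3′ on the strand of the gene, with matches to ACGTG or GCGTG on either strand in capitals. *Pygl* (chr12:70274452-70274751, minus strand) had the largest rise, *Pgm1* (chr4:99786361-99786660, plus strand) rose too, *Aldoc* (chr11:78213544-78213843, plus strand) rose and holds no match, and *Ldha* (chr7:46495013-46495312, plus strand) did not pass the threshold and holds 8 matches, where a CACGTG counts as a match on both strands.
Pygl: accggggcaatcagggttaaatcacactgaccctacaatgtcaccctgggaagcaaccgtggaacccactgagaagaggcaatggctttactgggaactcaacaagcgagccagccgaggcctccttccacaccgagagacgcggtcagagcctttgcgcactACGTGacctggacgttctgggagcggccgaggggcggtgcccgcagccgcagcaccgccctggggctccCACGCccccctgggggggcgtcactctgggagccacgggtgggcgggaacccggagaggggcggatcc
Pgm1: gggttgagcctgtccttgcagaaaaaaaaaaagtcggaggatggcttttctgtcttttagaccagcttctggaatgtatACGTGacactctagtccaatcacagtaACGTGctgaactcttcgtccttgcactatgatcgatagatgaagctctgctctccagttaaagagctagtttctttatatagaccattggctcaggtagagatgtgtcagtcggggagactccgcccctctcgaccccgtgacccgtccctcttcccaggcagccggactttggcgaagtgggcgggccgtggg
Aldoc: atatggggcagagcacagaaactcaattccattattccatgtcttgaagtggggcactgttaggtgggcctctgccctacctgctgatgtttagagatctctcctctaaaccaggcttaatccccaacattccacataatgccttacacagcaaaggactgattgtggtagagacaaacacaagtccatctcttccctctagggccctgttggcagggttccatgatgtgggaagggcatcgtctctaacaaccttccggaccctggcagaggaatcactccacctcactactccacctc
Ldha: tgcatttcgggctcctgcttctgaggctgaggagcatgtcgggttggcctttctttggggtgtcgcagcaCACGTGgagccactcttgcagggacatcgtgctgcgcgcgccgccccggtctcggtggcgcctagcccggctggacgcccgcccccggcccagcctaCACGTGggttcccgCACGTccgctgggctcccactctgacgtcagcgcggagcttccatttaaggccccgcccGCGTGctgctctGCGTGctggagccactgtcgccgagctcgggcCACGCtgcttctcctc

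In windows of this length, ACGTG or GCGTG occurred in 25 of the 35 genes (71.4%) and in 60.2% of 12974 protein-coding genes tested. ACGTG, which every CACGTG contains, was found in 16 of the 35 (45.7%) against 25.3% of those genes, and GCGTG in 18 of the 35 (51.4%) against 48.3%. CACGTG was found in 4 of the 35 (11.4%), against 9.76%. Among the genes that rose, 8 of 11 held ACGTG or GCGTG, and among those that did not pass the threshold 17 of 24 did. Taken singly, ACGTG was found in 7 of the 11 and 9 of the 24, and GCGTG in 4 of the 11 and 14 of the 24. The genes that rose without a match were *Gpi1*, *Pfkfb3* and *Aldoc*. A match of letters is a description of the window, and binding was not measured here.

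Glucose enters through facilitative transporters and is trapped by hexokinase. *Slc2a1*, which codes for the transporter GLUT1, measured 229, 270 and 282 CPM at day 5 in mice 1, 2 and 3 and 542, 391 and 200 CPM at day 7. Mouse 3 went down while mice 1 and 2 went up, and the log2 fold change of 0.54 ± 0.26 (SE) missed the threshold (edgeR adjusted p = 0.203). Without the day 7 library of mouse 3 it was 0.84 with an edgeR adjusted p of 0.00182, higher in 2 of 2 mice, and over the alternatives with all libraries the adjusted p ran from 0.0615 to 0.840. *Slc2a3*, the neuronal-type transporter GLUT3, had no count at day 5 and 1, 2 and 0 counts at day 7, so no fold is given. At day 5 a count of 0 allows up to 1.13 to 1.56 CPM on totals before TMM scaling.

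The summed hexokinase level was 154 to 176 CPM at day 5 and 156 to 203 CPM at day 7. *Hk1*, the form found in most tissues, ran from 101 to 116 CPM at day 5 and from 89.6 to 142 CPM at day 7. *Hk2*, the form regulated by insulin in muscle and fat, ran from 53.2 to 66.7 CPM at day 5 and from 37.2 to 66.3 CPM at day 7. The days overlapped for both, and neither passed the threshold.

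*Gpi1* (ENSMUSG00000036427, chromosome 7, 33900755 to 33929780) codes for glucose-6-phosphate isomerase, which makes fructose 6-phosphate. It measured 95.3, 153 and 138 CPM at day 5 and 229, 231 and 288 CPM at day 7, without overlap and higher in 3 of 3 mice. The log2 fold change was 0.95 ± 0.21 (SE, edgeR adjusted p = 0.00536). This call was lost without the day 5 library of mouse 1 (0.77, edgeR adjusted p = 0.0678) and in a test against a minimum change of 0.6 (glmTreat, adjusted p = 0.183). Over the alternatives with all libraries its adjusted p ran from 0.000155 to 0.183.

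Phosphofructokinase 1 makes the committed step of glycolysis and is a tetramer of liver, muscle and platelet type subunits. *Pfkp*, the platelet type (ENSMUSG00000021196, chromosome 13, 6629798 to 6698970), measured 31.3, 52.2 and 38.9 CPM at day 5 and 104, 79.5 and 124 CPM at day 7. Its log2 fold change was 1.33 ± 0.24 (SE, edgeR adjusted p = 0.00102, higher in 3 of 3 mice). *Pfkl*, the liver type, measured 33.0, 51.7 and 45.8 CPM at day 5 and 84.4, 41.7 and 54.3 CPM at day 7, with overlap between the days. *Pfkm*, the muscle type, ran from 6.60 to 8.54 CPM at day 5 and from 10.8 to 14.2 CPM at day 7, without overlap, and missed the threshold (0.70 ± 0.31, edgeR adjusted p = 0.161). The share of *Pfkp* in the reads of the 3 genes was 44.2%, 46.4% and 41.9% at day 5 and 51.4%, 59.3% and 65.5% at day 7, a gain of 14.6 points in the mean, while *Pfkl* went from 47.2% to 33.8%.

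A family of bifunctional enzymes makes and removes the sugar bisphosphate that activates phosphofructokinase 1. *Pfkfb3* (ENSMUSG00000026773, chromosome 2, 11476244 to 11558888), the form with the strongest kinase activity, measured 3.71, 7.03 and 8.65 CPM at day 5 and 28.8, 19.4 and 5.38 CPM at day 7. It rose in the mean by 1.48 ± 0.46 on the log2 scale (SE, edgeR adjusted p = 0.0409), in mice 1 and 2 only, with mouse 3 within the day 5 range. The call held in 6 of 16 alternatives, with adjusted p from 0.000310 to 0.164 over those with all libraries. It was lost without the day 5 library of mouse 1, 2 or 3 (1.20, 1.53 and 1.77, edgeR adjusted p = 0.205, 0.146 and 0.0853) and without the day 7 library of mouse 1 or 2 (0.99 and 1.42, edgeR adjusted p = 0.143 and 0.147). *Pfkfb2* and *Pfkfb4* had 9 and 11 counts in all at day 5 and 15 and 19 at day 7, ratios of 1.59 (0.653 to 4.13) and 1.65 (0.746 to 3.84), where the 95% intervals cover counting error only and include no change.

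Both aldolases, which split the sugar into triose phosphates, rose in every mouse. *Aldoa* (ENSMUSG00000030695, chromosome 7, 126393822 to 126399923) measured 376, 495 and 454 CPM at day 5 and 934, 795 and 874 CPM at day 7, the largest gain in CPM among the 35 genes. Its log2 fold change was 0.97 ± 0.19 (SE, edgeR adjusted p = 0.00209), a call lost only in the test against a minimum change of 0.6 (glmTreat, adjusted p = 0.123, the highest over the alternatives with all libraries, from 2.37e-05). *Aldoc* (ENSMUSG00000017390, chromosome 11, 78213619 to 78218889), known from brain, measured 28.5, 34.1 and 35.7 CPM at day 5 and 94.0, 75.3 and 86.6 CPM at day 7. It rose by 1.38 ± 0.21 on the log2 scale (SE, edgeR adjusted p = 0.000283). *Aldoa* remained the main form, with 93.1% ± 0.425 of aldolase reads at day 5 and 91.1% ± 0.252 at day 7 (SD, n = 3). *Tpi1*, which interconverts the triose phosphates, measured 125, 143 and 148 CPM at day 5 and 241, 193 and 157 CPM at day 7. The days did not overlap, but its change of 0.51 ± 0.20 missed the threshold (edgeR adjusted p = 0.107), and it passed only without the day 7 library of mouse 3 (0.65, edgeR adjusted p = 0.00653, where the alternatives with all libraries ran from 0.0918 to 0.906).

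**Figure D2:**
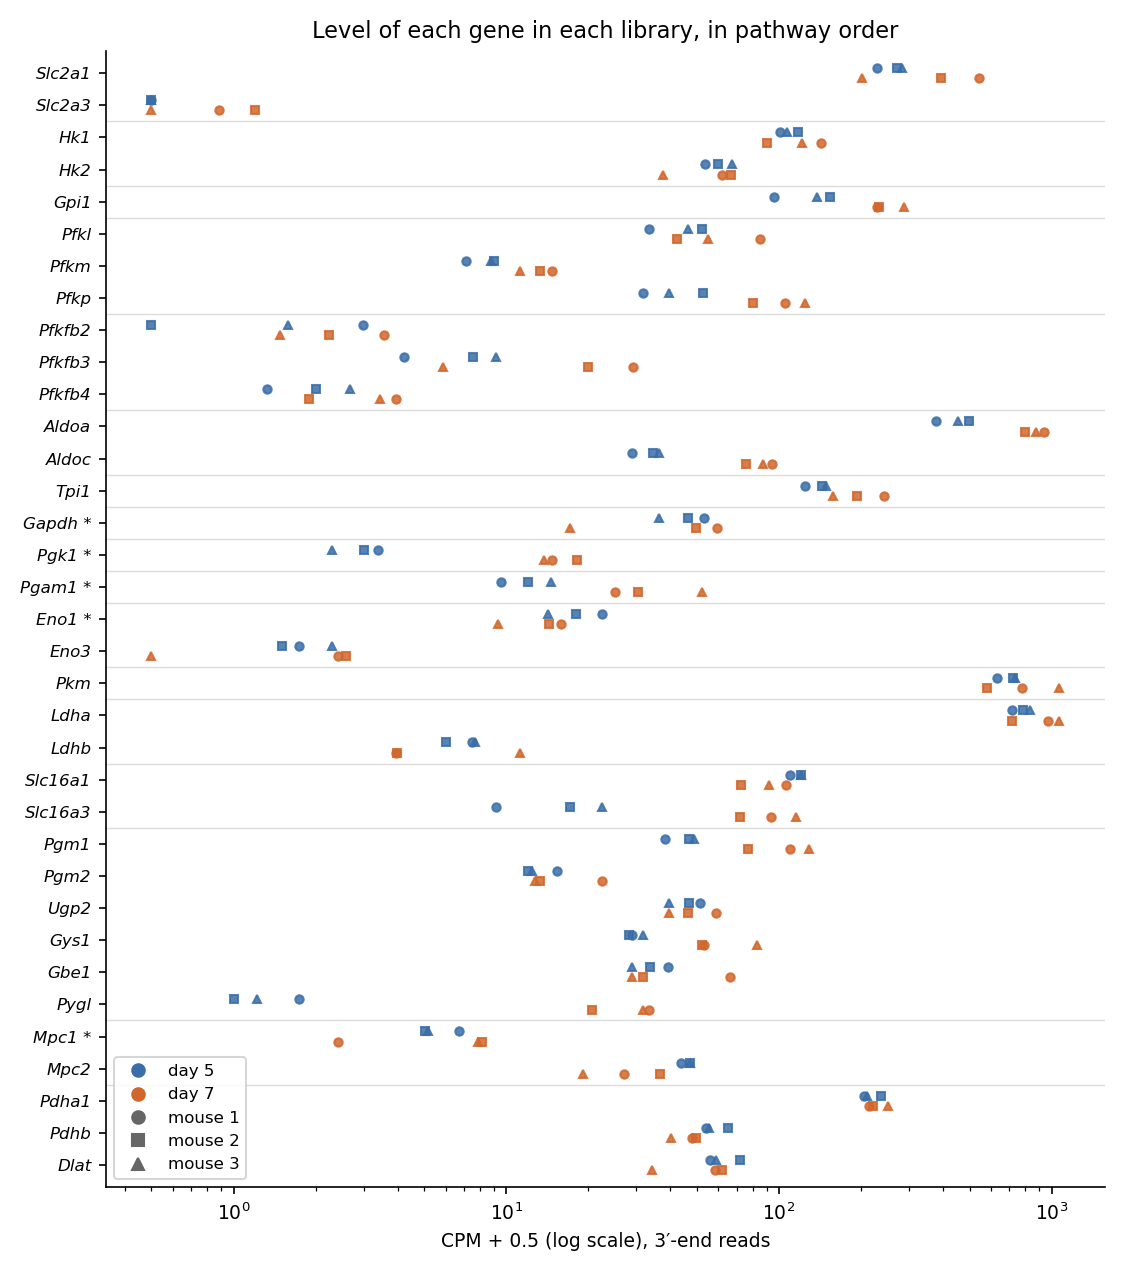
Level of each gene in each library, in CPM + 0.5 on a log scale, in pathway order from top to bottom, with blue for day 5, orange for day 7 and a symbol for each mouse. *Ldha*, *Pkm* and *Aldoa* hold the highest levels, *Pygl*, *Pgk1* and *Slc16a3* lie far apart on the days, and *Slc2a3* lies near 0. Stars mark genes whose 3′ end recurs elsewhere in the genome.

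The levels of 5 of the genes need a caution on mapping. The last 500 bases of a transcript, where these reads come from, were compared with the rest of GRCm39 in windows of 75 bases. Such windows recurred exactly elsewhere for 100% of *Gapdh*, 99.5% of *Pgam1*, 99.1% of *Mpc1*, 82.6% of *Pgk1* and 62.0% of *Eno1*, and for at most 24.6% (*Ldhb*) of the other 30 genes. Windows of 50 bases recurred more often among those 30, for 38.8% of *Ldhb*, 32.6% of *Tpi1*, 31.3% of *Pkm* and 26.4% of *Ldha*. *Gapdh*, a usual reference gene, had 39 near copies of its 3′ end and measured 43.1 CPM in the mean of all libraries, where 75.7% of the genes tested lay lower. The reads that named no gene were all outside the annotated genes or ambiguous between genes, and none was listed as aligned in several places. How reads that align in several places were counted is not given in the sources used here. How many of their reads these 5 genes lost, or gained from copies, therefore cannot be told. Their changes are given for the reads that were assigned to them.

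*Gapdh*, which oxidises glyceraldehyde 3-phosphate, measured 52.8, 45.7 and 35.7 CPM at day 5 and 58.7, 49.0 and 16.6 CPM at day 7, with overlap. *Pgk1* (ENSMUSG00000062070, chromosome X, 105230706 to 105247305), the first ATP-yielding kinase of the path, held 7, 5 and 5 counts at day 5 and 37, 51 and 27 counts at day 7. The ratio after scaling was 6.46 with a 95% counting interval of 3.86 to 11.5, and the log2 fold change was 2.64 ± 0.38 (SE, edgeR adjusted p = 0.000144, higher in 3 of 3 mice). *Pgam1* (ENSMUSG00000011752, chromosome 19, 41900341 to 41907104), phosphoglycerate mutase, measured 9.07, 11.5 and 14.1 CPM at day 5 and 24.5, 29.9 and 51.9 CPM at day 7. It rose by 1.59 ± 0.31 on the log2 scale (SE, edgeR adjusted p = 0.00226, higher in 3 of 3 mice). *Eno1*, the common enolase, ran from 13.7 to 21.9 CPM at day 5 and from 8.81 to 15.3 CPM at day 7, and did not pass the threshold. *Eno3*, the muscle enolase, had 10 and 11 counts in all on the days. With the counts of the annotated copies added, a choice made after the values were seen, *Pgk1* still rose, by 2.46, and 11 of the 35 genes stayed past the threshold. Only reads assigned to an annotated copy enter in this way, and *Pgam1* and *Mpc1* gained none. The step therefore cannot show what reads left unassigned would change. Among the 30 genes with mostly unique 3′ ends, 9 rose.

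**Figure D3:**
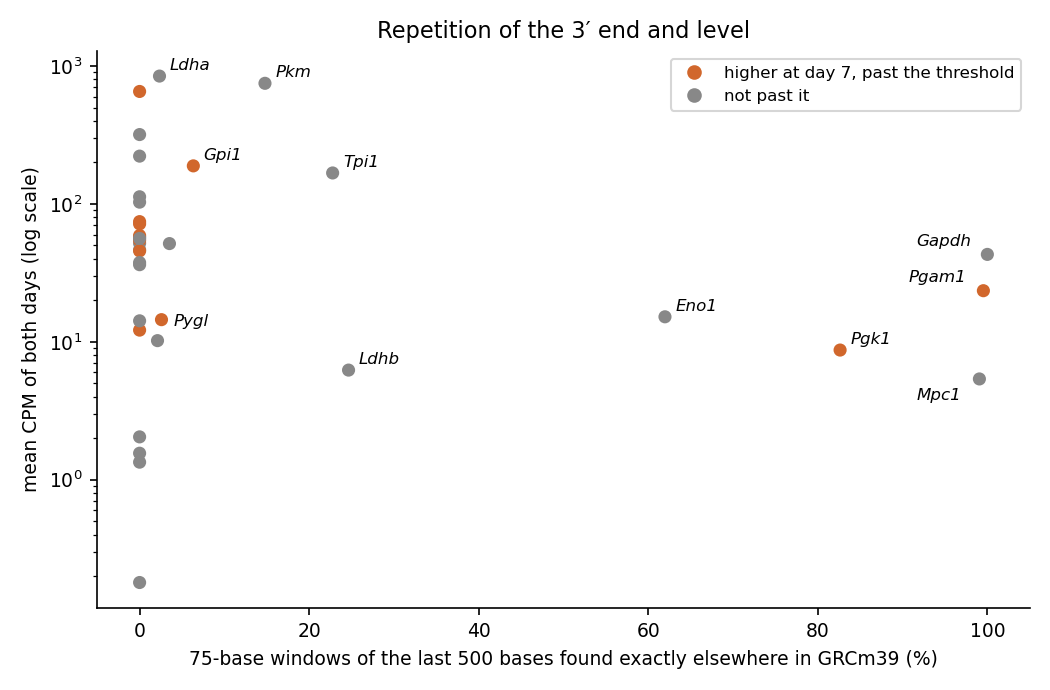
Share of 75-base windows in the last 500 bases of each gene that recur exactly elsewhere in GRCm39 (%), against the mean CPM of all 6 libraries on a log scale. Orange points rose by day 7 and grey points did not pass the threshold. *Gapdh*, *Pgam1*, *Mpc1*, *Pgk1* and *Eno1* lie at 62.0% to 100% and at most 43.1 CPM, while *Ldha*, *Pkm* and *Aldoa* lie at 847, 750 and 655 CPM and at most 14.8%.

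*Ldha* and *Pkm* had the highest mean levels of the 35 over all 6 libraries, and neither passed the threshold. At day 7 the mean of *Aldoa*, 868 CPM, lay above that of *Pkm*, 807 CPM. *Pkm*, pyruvate kinase, measured 629, 721 and 731 CPM at day 5 and 778, 580 and 1062 CPM at day 7. *Ldha*, the lactate-forming subunit of lactate dehydrogenase, measured 712, 783 and 833 CPM at day 5 and 971, 714 and 1066 CPM at day 7. For both, mouse 2 went down and mice 1 and 3 went up, with log2 fold changes of 0.22 ± 0.21 and 0.24 ± 0.20 (SE, edgeR adjusted p = 0.564 and 0.466). *Ldha* took 99.2% ± 0.138 of the reads of *Ldha* and *Ldhb* at day 5 and 99.4% ± 0.342 at day 7 (SD, n = 3). *Ldhb*, the subunit favoured in oxidative tissue, lay between 3.45 and 10.8 CPM in all libraries.

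Lactate leaves the cell with a proton through monocarboxylate transporters. *Slc16a3* (ENSMUSG00000025161, chromosome 11, 120838846 to 120851694), which codes for MCT4, the low-affinity lactate exporter, measured 8.66, 16.6 and 22.0 CPM at day 5 and 93.2, 71.2 and 115 CPM at day 7. Its log2 fold change was 2.55 ± 0.29 (SE, edgeR adjusted p = 1.39e-05, higher in 3 of 3 mice), and it was past the threshold in all 16 alternatives. *Slc16a1*, which codes for the high-affinity carrier MCT1, measured 109, 120 and 120 CPM at day 5 and 106, 72.2 and 91.5 CPM at day 7. It was lower in 3 of 3 mice without overlap, but its change of -0.37 ± 0.20 missed the threshold (edgeR adjusted p = 0.248). The share of *Slc16a3* in the reads of both genes was 7.34%, 12.1% and 15.5% at day 5 and 46.8%, 49.6% and 55.7% at day 7. This gain of 39.0 points was the widest of 10 isozyme shares compared between the days.

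A share within a step does not depend on the scaling between libraries. Of the 10 shares, 4 did not overlap between the days, namely *Pfkp*, *Pfkl*, *Aldoa* and *Slc16a3*. Those of *Pfkp* and *Pfkl* are parts of the same reads, so they are not separate results. For levels rather than shares, 30.9% of all genes tested did not overlap between the days in either direction. Each had a two-sided exact permutation p of 0.1, the smallest that this test can give for 3 against 3 libraries, or 0.25 after Benjamini-Hochberg adjustment over the 10, so no share could reach 0.05 in it. The shares of *Hk2*, *Eno1*, *Ldha*, *Slc2a1*, *Pfkfb3* and *Pfkfb4* overlapped between the days.

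**Figure D4:**
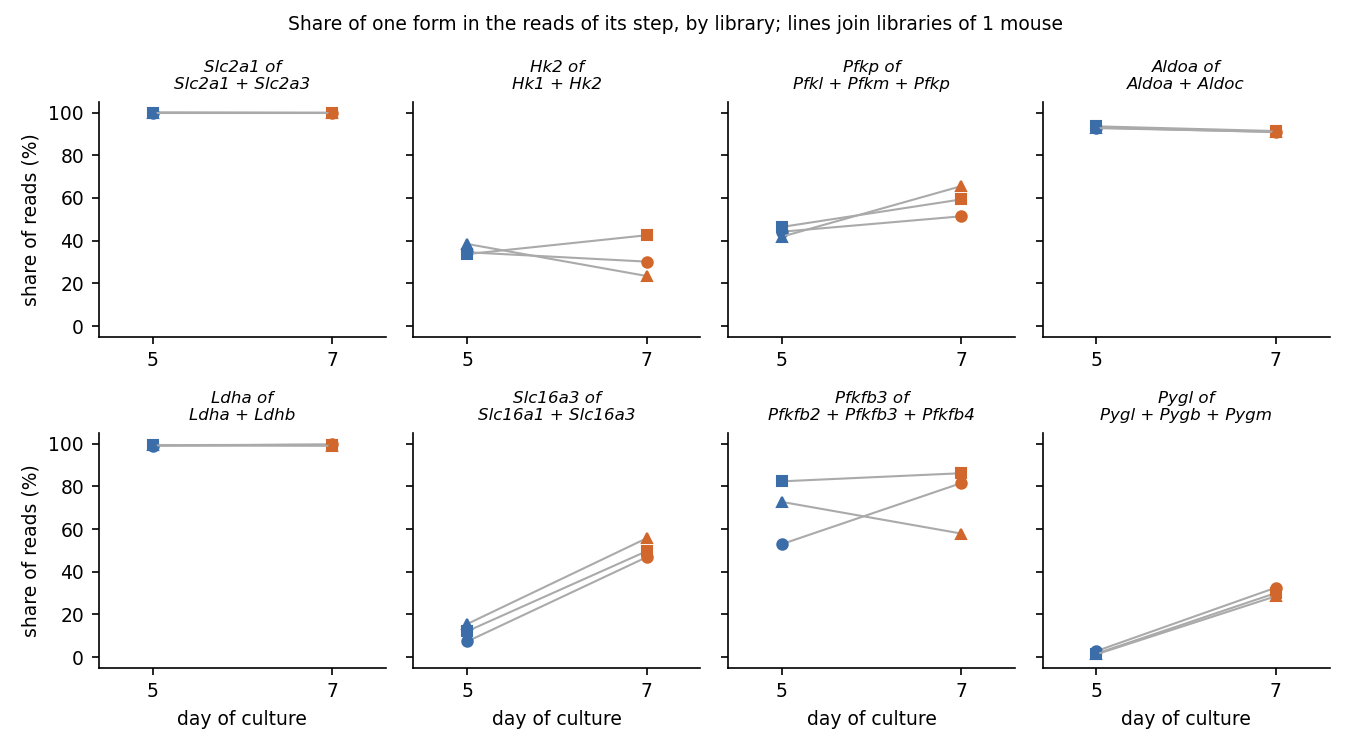
Share of a named form in the summed reads of its step (%), for each library on day 5 and day 7 of culture, with grey lines joining the libraries of a mouse. *Slc16a3* goes from 7.34% to 15.5% at day 5 to 46.8% to 55.7% at day 7 and *Pygl* from at most 2.86% to at least 28.6%, while *Ldha*, *Slc2a1* and *Aldoa* stay above 90% in all 6 libraries.

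In glycogen metabolism the gene that releases glucose from the store had the largest change of all 35. *Pygl* (ENSMUSG00000021069, chromosome 12, 70237585 to 70278262), the liver form of glycogen phosphorylase, held 3, 1 and 2 counts at day 5 and 86, 58 and 64 counts at day 7. The levels were 1.24, 0.502 and 0.721 CPM at day 5 and 33.0, 20.1 and 31.3 CPM at day 7, so every day 7 library lay far above day 5. The ratio after scaling was 33.1 with a 95% counting interval of 14.96 to 91.3, and the log2 fold change was 4.99 ± 0.43 (SE, edgeR adjusted p = 7.57e-07). *Pygb*, the brain form and no member of the list, measured 42.1, 29.6 and 51.9 CPM at day 5 and 67.5, 46.5 and 77.3 CPM at day 7, and missed the threshold (0.62 ± 0.25, edgeR adjusted p = 0.115). Of the reads of *Pygl*, *Pygb* and the muscle form *Pygm* together, *Pygl* held 1.34% to 2.86% at day 5 and 28.6% to 32.6% at day 7, a share chosen after the values were seen and not tested.

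Of the other glycogen genes 2 rose. *Pgm1* (ENSMUSG00000025791, chromosome 4, 99786394 to 99844492), which converts glucose 6-phosphate to glucose 1-phosphate and back, measured 37.5, 46.2 and 48.3 CPM at day 5 and 109, 76.7 and 129 CPM at day 7. Its log2 fold change was 1.25 ± 0.23 (SE, edgeR adjusted p = 0.00123, higher in 3 of 3 mice). *Gys1* (ENSMUSG00000003865, chromosome 7, 45084175 to 45106058), the glycogen synthase of most tissues, measured 28.5, 27.6 and 31.3 CPM at day 5 and 52.5, 51.7 and 82.2 CPM at day 7. It rose by 1.08 ± 0.24 on the log2 scale (SE, edgeR adjusted p = 0.00518, higher in 3 of 3 mice), a call lost without the day 5 library of mouse 2 (1.05, edgeR adjusted p = 0.0529) and with glmTreat (adjusted p = 0.115, the highest over the alternatives with all libraries, from 0.000248). *Ugp2*, *Gbe1* and *Pgm2* did not pass the threshold. *Ugp2*, which makes UDP-glucose, ran from 38.9 to 50.7 CPM at day 5 and from 39.2 to 58.3 CPM at day 7. *Gbe1*, the branching enzyme, ran from 28.5 to 38.8 CPM at day 5 and from 28.4 to 65.6 CPM at day 7, where only mouse 1 lay above the day 5 range. *Pgm2*, a related phosphomutase, ran from 11.5 to 14.8 CPM at day 5 and from 12.2 to 21.9 CPM at day 7. The summed level of the 6 glycogen genes was 160 to 172 CPM at day 5 and 239 to 341 CPM at day 7.

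None of the 5 genes of mitochondrial pyruvate entry passed the threshold in the day comparison, and DESeq2 called 0 of them, while 1 had an unadjusted edgeR p under 0.05. *Mpc2*, a subunit of the pyruvate carrier, measured 43.3, 46.7 and 46.5 CPM at day 5 and 26.5, 36.1 and 18.6 CPM at day 7, lower in 3 of 3 mice without overlap. Its log2 fold change of -0.74 ± 0.25 missed the threshold (edgeR adjusted p = 0.0615), and with the mouse as a block it was -0.78 and passed (edgeR adjusted p = 0.0216). It also passed with library totals only, with upper quartile scaling, with no filter and without the day 7 library of mouse 2, at adjusted p of 0.0434, 0.0490, 0.0338 and 0.0330, and over the alternatives with all libraries its adjusted p ran from 0.0216 to 0.550. *Mpc1*, the partner subunit, lay between 1.92 and 7.64 CPM with overlap, and most of its 3′ end recurs elsewhere.

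The pyruvate dehydrogenase complex is represented by 3 genes. *Pdha1*, the catalytic alpha subunit, measured 204, 235 and 210 CPM at day 5 and 214, 220 and 251 CPM at day 7. *Pdhb*, the beta subunit, measured 53.6, 64.8 and 54.8 CPM at day 5 and 47.6, 49.3 and 39.7 CPM at day 7, lower in 3 of 3 mice without overlap (-0.34 ± 0.21, edgeR adjusted p = 0.326). *Dlat*, the acetyltransferase, ran from 55.3 to 71.3 CPM at day 5 and from 33.8 to 61.1 CPM at day 7. None of the 3 passed the threshold, and their summed level was 313 to 372 CPM at day 5 and 319 to 331 CPM at day 7.

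The 3 mice did not move alike across the genes. In mouse 1, 29 of the 35 genes were higher at day 7, against 21 in mouse 2 and 22 in mouse 3. Mouse 3 held the lowest of the 3 day 7 values in 17 genes (48.6%, against 38.3% of all genes tested that could be ranked), among them *Slc2a1*, *Pfkfb3*, *Tpi1*, *Gapdh*, *Gbe1* and *Mpc2*. It held the highest in 10 genes (28.6%, against 41.0%), among them *Gpi1*, *Pfkp*, *Pgam1*, *Pkm*, *Ldha*, *Slc16a3*, *Pgm1* and *Gys1*. At day 5 the lowest value was that of mouse 1 in 22 of 34 genes that could be ranked (64.7%, against 34.7% of all genes tested). The 13 genes higher at day 7 in all 3 mice were *Pfkm*, *Tpi1*, *Pgm2* and the genes that rose other than *Pfkfb3*, and the 4 genes lower in all 3 were *Eno1*, *Slc16a1*, *Mpc2* and *Pdhb*. For the counts of genes higher or lower within a mouse, or in all 3, shares over all genes tested were not computed. Those counts describe the list only.

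Other genes of the same and neighbouring pathways were read from the same fit. Of 87 such genes 66 were tested, 9 rose and 1 fell, or 13.6% and 1.52%, where 7.22% and 4.82% of all genes tested did. *Bsg*, which codes for basigin, the chaperone that brings MCT1 and MCT4 to the cell surface, measured 139, 103 and 119 CPM at day 5 and 276, 264 and 237 CPM at day 7 (1.11 ± 0.19, edgeR adjusted p = 0.000809, higher in 3 of 3 mice). *Ldhd*, the mitochondrial D-lactate dehydrogenase, rose by 1.70 ± 0.29 on the log2 scale, from 11.3 ± 4.26 to 37.4 ± 6.57 CPM (SD, n = 3). These were the 2 of 10 further glycolysis genes that passed. With the mouse as a block 2 more passed, *Slc2a4*, the insulin-regulated transporter GLUT4, as higher (1.72, edgeR adjusted p = 0.0174, against 0.0512 without the block) and *Adpgk*, the ADP-dependent glucokinase, as lower (-1.12, edgeR adjusted p = 0.0278, against 0.273). Over the alternatives with all libraries the adjusted p ran from 0.0141 to 0.173 for *Slc2a4* and from 0.0278 to 0.602 for *Adpgk*.

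Of 15 further glycogen genes 2 rose. *Ppp1r3b*, which brings a phosphatase to glycogen and so activates its synthesis, held 3, 0 and 1 counts at day 5 and 31, 31 and 9 counts at day 7 (3.93 ± 0.66, edgeR adjusted p = 0.000612, higher in 3 of 3 mice). *Stbd1*, a glycogen-binding protein of the endoplasmic reticulum, rose by 1.90 ± 0.48 on the log2 scale, with 2.16 to 4.12 CPM at day 5 and 14.96, 13.5 and 3.92 CPM at day 7. Its mouse 3 value at day 7 lay within the day 5 range, and the call was lost without the day 5 library of mouse 2 or 3 or the day 7 library of mouse 2 (1.81, 1.69 and 1.71, edgeR adjusted p = 0.0886, 0.1004 and 0.0877). The call was also lost with glmTreat.

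Among 9 further genes of pyruvate use, *Pcx*, pyruvate carboxylase, rose from 2.18 ± 0.634 to 7.69 ± 0.648 CPM (SD, n = 3), by 1.78 ± 0.43 on the log2 scale (edgeR adjusted p = 0.0101, higher in 3 of 3 mice). Its call was lost without the day 5 library of mouse 1 or 2 (1.60 and 1.73, edgeR adjusted p = 0.0746 and 0.0634) and with glmTreat. *Pdk1*, the kinase that switches off pyruvate dehydrogenase, measured 58.2, 84.9 and 72.1 CPM at day 5 and 172, 111 and 86.2 CPM at day 7 (0.78 ± 0.24, edgeR adjusted p = 0.0419), a call that held in 6 of 16 alternatives. Among libraries left out in turn, it held only without the day 7 library of mouse 3, and its log2 fold change was lowest, 0.46, without that of mouse 1. Of the 16 citrate cycle genes 0 passed the threshold and DESeq2 called 0, while some passed as lower under other settings. With the mouse as a block these were *Fh1*, fumarase (-1.43, edgeR adjusted p = 3.16e-06), and *Cs*, citrate synthase (-0.63, edgeR adjusted p = 0.0480). With library totals only they were *Fh1*, *Sdha* and *Sdhb*, the latter both coding for succinate dehydrogenase subunits (edgeR adjusted p = 0.0476, 0.0369 and 0.0481), and with no filter *Fh1*. Without the day 7 library of mouse 1, and likewise without that of mouse 3, 3 passed. Under each of 4 scalings, 14 of them had a negative log2 fold change, and 7 lay below all day 5 values, or 43.8% against 15.5% of all genes tested. At an unadjusted edgeR p under 0.05 there were 5 of these 16, or 31.3%, where 25.8% of all genes tested had one. The median log2 fold change of the 16 was -0.31.

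In the pentose phosphate pathway, which branches off at glucose 6-phosphate, *Pgd*, 6-phosphogluconate dehydrogenase, fell by 0.80 ± 0.19 on the log2 scale, from 297 ± 24.5 to 170 ± 21.9 CPM (SD, n = 3), lower in 3 of 3 mice. That call was lost without the day 5 library of mouse 2 or 3 (-0.73 and -0.83, edgeR adjusted p = 0.0822 and 0.0506) and with glmTreat. *Pgls*, the lactonase before it, rose by 1.20 ± 0.31, with 95.3, 98.4 and 114 CPM at day 5 and 138, 158 and 417 CPM at day 7. This call was lost without the day 7 library of mouse 3 (0.52) and without each day 5 library in turn (1.14 to 1.29). It was also lost with a robust fit (robust = TRUE) and with glmTreat. Of 2 gluconeogenesis genes tested, edgeR and DESeq2 called 0, and 0 had an unadjusted p under 0.05. Of 7 regulators, *Epas1*, which codes for HIF-2 alpha, rose by 1.01 ± 0.25 from 17.9 ± 2.97 to 36.2 ± 4.22 CPM, and *Txnip*, which curbs glucose uptake, rose by 1.35 ± 0.37 from 13.4 ± 5.07 to 34.0 ± 19.1 CPM (SD, n = 3). The day 7 value of *Txnip* in mouse 3 lay within the day 5 range. The *Epas1* call was lost without the day 5 library of mouse 1 or 2 or the day 7 library of mouse 2 (0.96, 0.92 and 0.91), and the *Txnip* call without the day 5 library of mouse 2 or 3 or the day 7 library of mouse 2 (1.14, 1.28 and 0.84). Both calls were also lost with glmTreat, and that of *Txnip* with filterByExpr and with a robust fit (robust = TRUE). *Hif1a* measured 323, 394 and 320 CPM at day 5 and 591, 462 and 444 CPM at day 7, without overlap, and missed the threshold (0.53 ± 0.19, edgeR adjusted p = 0.0798).

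**Figure D5:**
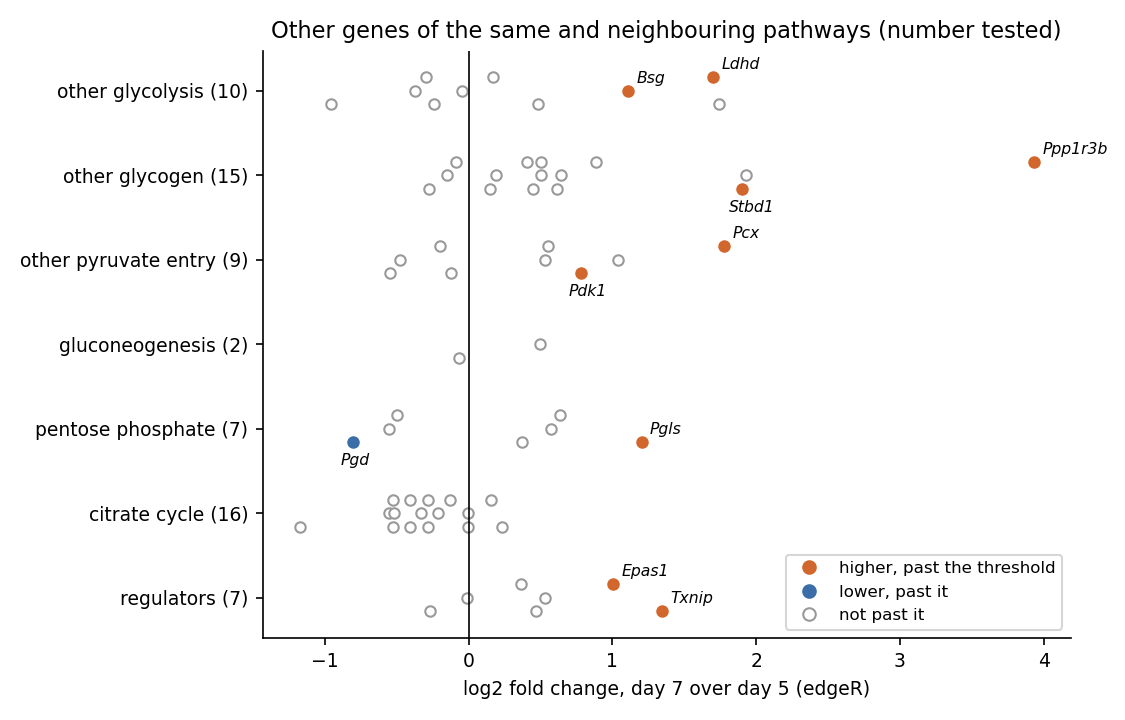
Log2 fold change from day 5 to day 7 (edgeR) of each tested gene in 7 lists of other pathway genes, with the number tested in brackets, where points are offset vertically for legibility. Of 66 genes, 9 in orange rose and *Pgd* in blue fell, and 14 of 16 citrate cycle genes lie left of 0.

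Markers of other cell types were low on both days. The summed level of 12 fibroblast markers, 8 with a count, was 10.3 to 17.6 CPM at day 5 and 24.5 to 26.0 CPM at day 7, without overlap and mostly *Fbln1*, with *Col1a2*, *Col3a1*, *Lum* and *Dpt* at 0 in all libraries. That of 10 skeletal muscle markers, 6 with a count, was 1.65 to 4.02 CPM at day 5 and 5.87 to 9.72 CPM at day 7, without overlap, with *Ckm*, *Tnnt3*, *Actn3* and *Myl1* at 0. *Acta1*, skeletal muscle actin, had no count at day 5 and 20, 24 and 7 counts at day 7, which was most of that sum, and it rose (edgeR adjusted p = 0.000315) in the 15 alternatives that tested it too. Macrophage markers, 4 of 12 with a count, summed to 8.03 to 10.7 CPM and 9.30 to 13.9 CPM, with *Adgre1*, *Csf1r*, *Lyz2* and the C1q genes at 0. Within that sum *Cd68*, a lysosomal protein, rose from 7 to 39 counts (2.36 ± 0.61 on the log2 scale, edgeR adjusted p = 0.0151), a call lost with glmTreat and without the day 5 library of mouse 2 or 3 or the day 7 library of mouse 2 (2.37, 1.91 and 2.25), while *Cd14* measured 8.13 and 5.65 CPM in the means of the days. Endothelial markers, 8 of 10 with a count, summed to 12.2 to 14.1 CPM and 13.9 to 27.4 CPM, with *Cdh5* and *Tek* at 0, and of 6 erythroid markers 1 had a count. For scale, the day means of *Aldoa* were 442 and 868 CPM, and no sum of these lists exceeded 27.4 CPM in a library. The part of these markers in the changes of low genes such as *Pygl* and *Pgk1* was not tested.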

How the data were processed

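Mouse salivary gland organoids of 3 mice were measured on day 5 and day 7 by QuantSeq 3′ RNA sequencing, 1 library per mouse and day. The deposited files hold read counts per Ensembl gene ID and library, which the authors made from reads aligned to GRCm39 and did not normalise. The aligner, strand setting and treatment of reads with several alignments are not given in the sources used here. The 5 closing entries of each file that name no gene entered neither library sizes nor tests. Names were matched by ID to GENCODE vM39 for 43465 of 47643 IDs (91.2%). The ID with the most counts has no name there. It held 15.0%, 13.8% and 12.9% of the counts in genes at day 5 in mice 1, 2 and 3. At day 7 it held 17.3%, 15.2% and 18.6%, without overlap between the days. The ID is part of the library totals, and its part in the results was not tested. The list of 35 genes, the other lists and the cell markers were chosen with earlier results of these data known.

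A gene was tested if at least 2 libraries held 1 count or more of it (15792 genes), with edgeR 4.0.16 in R 4.3.3 (TMM scaling, glmQLFit and glmQLFTest, robust = FALSE, two-sided, day as the only term), and p-values were adjusted by Benjamini-Hochberg over all of them. The threshold, taken from the study's methods, was an adjusted p below 0.05 together with a log2 fold change beyond 0.6 in size. Errors beside a log2 fold change are SE, and CPM use TMM-scaled totals. Shares were compared by exact two-sided permutation of libraries and by sign flips of the differences within mice. Total counts per library were 1918198 to 2837397, so a count of 0 allows up to 1.06 to 1.56 CPM (3 counts) on these totals before TMM scaling. Intervals are 95% and, like this floor, cover counting error only, as reads carry no molecular identifiers.

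Beside the cell markers, named genes are all 35 list members, up to 3 genes past the threshold with the smallest p of each other list, and *Hif1a*, *Bsg*, *Pdk1* and *Pygb*. Outside this rule, and after the values were seen, *Slc2a4*, *Adpgk*, *Fh1*, *Cs*, *Sdha* and *Sdhb* were named because they passed under an alternative only. Not every such gene was named in the results. *Tkt* of the pentose phosphate pathway (log2 fold change 0.64 ± 0.21, edgeR adjusted p = 0.0558) passed as higher in 4 of 16 alternatives. Same-numbered libraries come from 1 mouse by their titles, and their deviations from the day means correlated at 0.137, -0.100 and 0.162 over 8172 genes. Alternatives were DESeq2 1.42.0 size factors, library totals only, upper quartile scaling, no filter, filterByExpr, the DESeq2 Wald test, robust = TRUE, glmTreat, the mouse as a block and leaving out each library. Also chosen after the data were seen were the counts of annotated copies added, members with repeated 3′ ends left out, and the share of *Pygl*. 3′ ends were compared with GRCm39 by exact windows and by BLAST 2.17.0, where a near copy aligned over at least 250 of the last 500 bases at 95% identity or more. The read length is not given in the sources used here, and windows of 75 bases are a choice. On the opposite strand 21 of the 35 genes overlap an exon of another gene, and on their own strand 3 (*Pfkfb2*, *Aldoa* and *Pkm*), so reads of such pairs may not be separated.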

Additional observations from a re-analysis of the deposited data

Results flagged for a closer look

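Reads that named no gene made up a mean of 14.1% of reads at day 5 and 9.37% at day 7. They stood out because they were counted for no gene and no library of day 7 reached the level of day 5. Their share was 9.12% to 9.74% in the day 7 libraries and 13.7% to 14.4% in those of day 5. Whether reads of the 35 genes are among them was not tested.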

How the results depend on the processing

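The number of the 35 genes past the threshold was 11 and stayed between 10 and 12 under the other scalings, filters, DESeq2 and robust fit. It was 7 with glmTreat and 9 to 13 with a library left out. Of the 11 genes, 7 passed in all 16 alternatives, namely *Pfkp*, *Aldoc*, *Pgk1*, *Pgam1*, *Slc16a3*, *Pgm1* and *Pygl*. Over all genes 1901 passed, 622 with glmTreat and 797 to 2576 with a library left out. Library totals only gave 950 higher and 1008 lower, against 1140 and 761. The 16 citrate cycle genes had 0 past the threshold and up to 3 under an alternative. Of the other pathway genes 10 passed, 3 with glmTreat and 3 to 16 with a library left out. With the mouse as a replicate block 12 of the 35 genes and 2340 of all genes passed. *Mpc2* was the gene gained, and the block changed no other call among the 35. The sign turned for *Eno3* with library totals only (-0.0364) and with the block (-0.0576), and for *Ugp2* (-0.0103) and *Pdha1* (-0.0176) with library totals only.

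With a library left out, log2 fold changes that turned sign ran from -0.0360 to 0.29 for *Hk1*, -0.27 to 0.0945 for *Hk2*, -0.41 to 0.27 for *Gapdh*, -0.38 to 0.52 for *Eno3*, -0.0320 to 0.41 for *Pkm*, -0.93 to 0.0577 for *Ldhb*, -0.0242 to 0.43 for *Pgm2*, -0.0845 to 0.20 for *Ugp2*, -0.16 to 0.53 for *Gbe1* and -0.21 to 0.54 for *Mpc1*. Differences in share that turned sign ran from -8.76 to 0.777 points for *Hk2*, -4.61 to 1.91 for *Eno1*, -2.35 to 14.5 for *Pfkfb3* and -7.90 to 4.82 for *Pfkfb4*. The cause was not tested. A fit without a library leaves 2 against 3. At this depth a change of *Pfkfb2*, *Pfkfb4* or *Eno3* within their counting intervals, which reach from 0.405 to 2.76 for *Eno3*, was not detectable, and *Slc2a3* held 3 counts in all.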
